A study of Oryza sativa with 6 samples.

Results

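The 200 most evenly expressed genes of the rice flag leaf were studied here, chosen from 6458 candidates in 6 RNA-Seq libraries. The candidates were the features with an identifier of the rice annotation project (prefix OS) and a mean of at least 20 FPKM (fragments per kilobase of transcript, scaled to the size of the library). The candidates were ranked by the coefficient of variation (CV, the standard deviation divided by the mean) of CPM, the read count of a gene scaled to an equal library total, over the 6 libraries, and the 200 lowest were taken. The low CV and the near equality of the genotypes are therefore what defined the set, and they are given as descriptions without a test.

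The libraries came from flag leaves at the heading stage, picked at 11 h in sunlight from field-grown plants, with 3 libraries of WT and 3 of OsRUS1-OX, each from the pooled leaves of 3 plants and collected independently. WT was the cultivar ZhongHua11 (ZH-11). OsRUS1-OX was a single transgenic line of the same cultivar overexpressing OsRUS1 fused to GFP, a green fluorescent protein. Leaves of WT were flat when picked and those of OsRUS1-OX were rolled, so genotype and leaf state cannot be told apart. With bulk leaves, a change in the share of a cell type and a change of RNA per cell cannot be told apart either.

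Quantitative PCR with reverse transcription (qRT-PCR) reports the level of a target relative to a reference gene, whose own variation passes into every result. Reference genes are usually picked among housekeeping genes, such as those for actin, tubulin, ubiquitin and elongation factors, because all living cells need their products. Actin is the protein of the microfilaments of the cytoskeleton, and plants carry a family of actin genes whose members are used to different degrees in different organs. OsACTIN1 (OS03G0718100, chromosome 3) was the reference of the study's qRT-PCR assays, and it is compared below with the 200 genes. Those assays used samples collected independently of these libraries, so its read counts here do not measure its level in them. The primers of OsACTIN1 are shown because each qRT-PCR value was divided by the product of this pair. Both are 26 bases long with 50% G and C, written 5′ to 3′.
OsACTIN1 forward primer: cttcataggaatggaagctgcgggta
OsACTIN1 reverse primer: cgaccaccttgatcttcatgctgcta

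The libraries held between 8759812 and 13532579 counted reads, and each detected between 25781 and 27415 of the 91180 features. A count of 3 equalled 0.222 to 0.342 CPM, a limit that covers counting error only. OS04G0290800, described with vitamin B6 photo-protection, was read here as OsRUS1 and served as the check of the labels. It had between 57 and 120 counts in WT and between 3515 and 7577 in OsRUS1-OX. A list of 6 leaf marker identifiers had a summed level of 33734 to 38166 FPKM in WT and 31999 to 34931 FPKM in OsRUS1-OX, with none at 0. A list of 5 markers of other organs summed to 5.64 to 12.3 FPKM in WT and 3.83 to 5.67 FPKM in OsRUS1-OX, with 1 at 0 in all libraries. No marker of either list was among the 200 genes, and these identifiers were not checked against an annotation.

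The CV of the 200 genes ran from 1.64% to 5.82%, with a median of 5.04%. The other 6258 candidates had CVs from 5.83% upwards, with a median of 18.7%. The highest CPM of each gene in the set was 1.05 to 1.19 times its lowest, with a median of 1.14, so all 200 stayed within 1.2-fold over the 6 libraries. For the other candidates the median of this ratio was 1.63. The set ended without a gap. Its last gene, OS01G0834200, had a CV of 5.82%, and the next candidate outside, OS02G0327100, had 5.83%. The last 5 genes of the set lay between 5.79% and 5.82%, and the next 5 candidates between 5.83% and 5.87%.

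On library totals the most even gene was OS02G0744100 on chromosome 2. Its CPM was 32.6, 32.1 and 31.7 in WT replicates 1, 2 and 3, and 31.6, 31.2 and 31.4 in OsRUS1-OX. The WT values were all slightly above those of OsRUS1-OX, and the highest of the 6 was 1.05 times the lowest. OS01G0711100 on chromosome 1 followed with 68.8, 67.4 and 70.5 CPM in WT and 71.3, 69.7 and 68.1 CPM in OsRUS1-OX. Its highest and lowest values fell in different genotypes, and the genotypes overlapped. OS04G0395900 had 41.2, 43.4 and 41.6 CPM in WT and 43.4, 43.2 and 43.2 CPM in OsRUS1-OX. Here the OsRUS1-OX libraries were nearly equal, and WT replicate 2 matched them.

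OS04G0521800 had 30.4, 30.6 and 31.9 CPM in WT and 32.0, 31.3 and 32.1 CPM in OsRUS1-OX. OS11G0586900 had 24.4, 25.4 and 25.1 CPM in WT and 24.3, 24.3 and 23.6 CPM in OsRUS1-OX. The first leaned towards OsRUS1-OX with an overlap between the genotypes, and the second towards WT without one. OS11G0293900, OS05G0256000, OS06G0210200, OS03G0313000 and OS06G0103700 completed the first 10, with CVs from 2.60% to 3.11% and mean levels from 24.96 to 79.4 FPKM. The CVs of these 10 depended on the scaling, with 1.62% to 6.07% on TMM-scaled library sizes, a scaling described below, and 5.42% for OS02G0744100. On library totals the 6 values of all 10 lay close around the mean of the gene, as the plot by library shows.

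**Figure D1:**
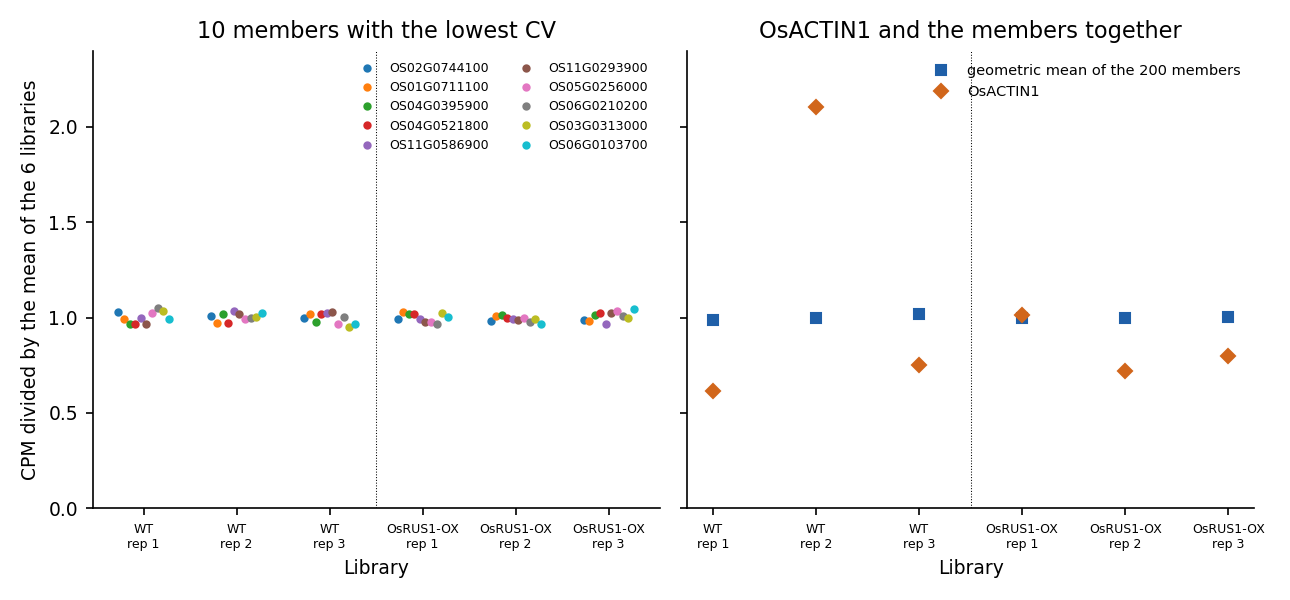
CPM in each library divided by the mean of the 6 libraries, for the 10 genes with the lowest CV (left) and for OsACTIN1 and the geometric mean of the 200 genes (right), with the genotypes separated by the dotted line. The 10 genes stay near 1 in every library, while OsACTIN1, with 1.37 to 4.68 CPM, stands at its highest in WT replicate 2.

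Sampling of reads alone gives a spread, which was computed for each gene from its mean CPM and the 6 library totals as the CV expected of Poisson counts. The median of this counting CV was 3.98% for the 200 genes and 3.82% for the other candidates, so both had nearly the same depth. The observed CV was 1.23 times the counting CV at the median of the set and 4.98 times at the median of the other candidates. In 55 of the 200 genes (27.5%) the observed CV was at or below the counting CV, against 11 of the other 6258 (0.176%). The choice took the lowest observed CVs, so it favoured low ratios to the counting CV, and these values are descriptions. An observed CV at or below counting does not show that these 55 genes had no further spread. OS02G0744100 was among them, with a CV of 1.64% where counting gives 5.24%. The order of the first genes thus rests on differences smaller than their counting error.

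In 29 of the 200 genes (14.5%) the CV was over 2 times the counting CV, against 91.8% of the other candidates. The choice favoured this low share too. The clearest of the 29 was OS08G0200300 on chromosome 8, the most abundant of the set with a mean of 15085 FPKM. It had 10730, 11033 and 9946 CPM in WT and 10709, 10604 and 11240 CPM in OsRUS1-OX. WT replicate 3 was the lowest and OsRUS1-OX replicate 3 the highest, and the genotypes overlapped. The CV of 4.13% was 14.5 times the counting CV of 0.286%.

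**Figure D2:**
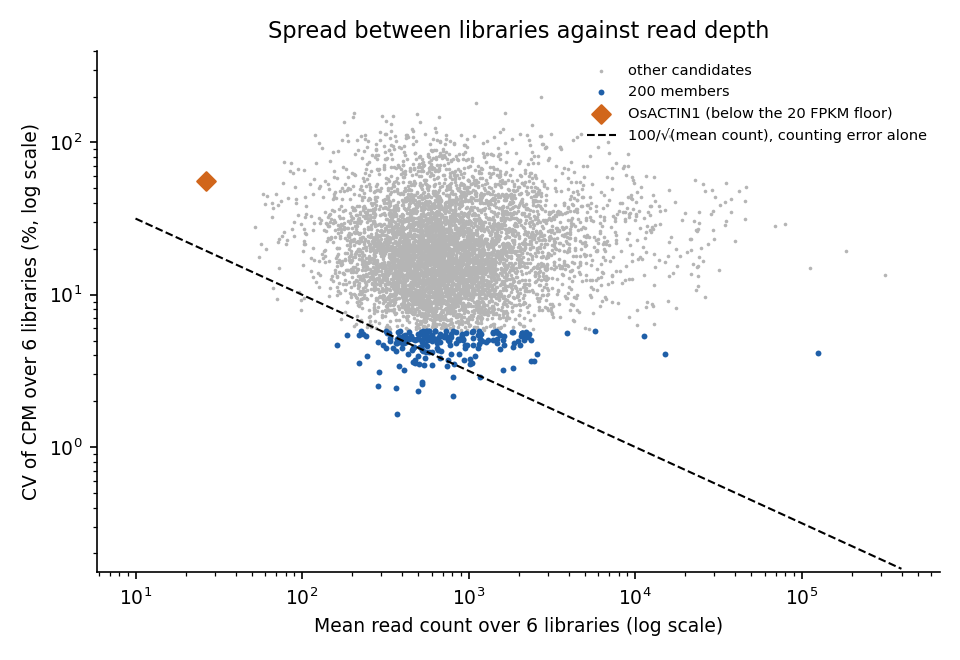
CV of CPM over the 6 libraries against the mean read count, both on log scales, for the 200 genes (blue), the other 6258 candidates (grey) and OsACTIN1 (diamond), with the line that counting error alone gives. The 200 genes lie around or just above this line up to about 1000 reads, and OS08G0200300 is the blue point at the far right with a CV of 4.13%.

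The mean FPKM of the set ran from 20.04 to 15085 with a median of 38.7. The other candidates reached 28063 FPKM and had a median of 41.3. With the candidates cut into 4 classes of equal size by mean FPKM, 58, 49, 52 and 41 of the 200 genes fell into the lowest to the highest class, or 3.59%, 3.04%, 3.22% and 2.54% of each. The median CV of all candidates in these classes was 16.7%, 16.9%, 18.1% and 21.5%. The 200 genes took between 2.75% and 2.86% of the counted reads in each library.

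After OS08G0200300, the most abundant genes were OS06G0580100 with 858 FPKM, OS03G0583800 with 747 FPKM, OS04G0119500 with 377 FPKM and OS01G0752800 with 322 FPKM. OS06G0580100 on chromosome 6 had 1268, 1387 and 1315 CPM in WT and 1249, 1249 and 1296 CPM in OsRUS1-OX. WT replicate 2 stood highest, and the other 5 libraries lay close together. OS03G0583800 on chromosome 3 had 906, 1025 and 987 CPM in WT and 999.9, 903 and 995 CPM in OsRUS1-OX. Its low values were in WT replicate 1 and OsRUS1-OX replicate 2. OS05G0445500, OS05G0491100, OS03G0161800, OS11G0181500 and OS08G0101700 completed the first 10 by level, with 178 to 256 FPKM and CVs of 3.30% to 5.73%.

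The identifier of a rice gene gives its chromosome. Chromosomes 1, 2 and 3 held 33, 27 and 27 of the 200 genes, and each of the 12 chromosomes held at least 4. Relative to the candidates, the share ran from 1.23% on chromosome 9 (4 of 324) to 4.27% on chromosome 11 (12 of 281). The transcript lengths that the FPKM values imply had a median of 1373 bases in the set, from 417 to 4628, and of 1345 bases in the other candidates. Genes under 1000 bases made up 20.5% of the set and 28.7% of all candidates, and genes of 1000 to 2000 bases 58% and 51.3%. These shares are descriptions of position and length, and the choice did not use position. Length entered it indirectly, through the FPKM floor and through the CV. At a given FPKM a shorter gene has fewer reads and so more counting error. The part of length in the lower share of short genes was not tested. Names and functions of the 200 genes were not analysed here.

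On the CPM scale the choice balanced the genotypes. The ratio of OsRUS1-OX to WT means lay between -0.13 and 0.13 on the log2 scale, with 100 genes above 0 and 100 below. The largest ratio in each direction belonged to OS12G0567700 and OS01G0895100, which were singled out after their values were seen. OS12G0567700 had 184.7, 171.7 and 183.0 CPM in WT and 202.2, 193.4 and 194.9 CPM in OsRUS1-OX. OS01G0895100 had 205.3, 207.0 and 204.0 CPM in WT and 186.3, 191.9 and 183.5 CPM in OsRUS1-OX. In neither did the genotypes overlap, although all 6 values of each were within 1.2-fold.

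The genotypes did not overlap in 23 of the 200 genes (11.5%), 10 higher and 13 lower in OsRUS1-OX. Among all 19694 features tested, 42.1% did not overlap on this scale, and nothing is read from the lower share because the choice used these values. By the quasi-likelihood test of edgeR, with p-values adjusted by the Benjamini-Hochberg method for 19694 features, 0 of the 200 genes were called at an adjusted p under 0.05, and 0 had an unadjusted p under 0.05. DESeq2 and limma also called 0, with 0 at an unadjusted p under 0.05. Over all features edgeR called 23.6%, split into 11.8% with a higher and 11.8% with a lower level in OsRUS1-OX. The choice of the set fixed this difference as well.

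The scaling of the libraries moved the set as a whole. edgeR's TMM method (trimmed mean of M values) estimates library factors after trimming the genes with the most extreme ratios and levels. The factors of the WT libraries were 0.951, 0.953 and 1.03, and those of the OsRUS1-OX libraries 1.03, 1.01 and 1.03. WT replicates 1 and 2 thus stood below the other 4 libraries. With these factors, edgeR's log2 fold changes of the 200 genes lay between -0.20 and 0.06 with a median of -0.07, and 176 were below 0. The median over all features was -0.01 with TMM factors and 0.06 with library totals alone, a shift of 0.07 that the 200 genes shared. On the TMM scale 52 of the 200 genes did not overlap between the genotypes, 2 higher and 50 lower in OsRUS1-OX. The share of all features without overlap was not computed on this scale, so nothing about the 200 genes is read from this count or its split. A direction for the set therefore depends on the scaling.

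**Figure D3:**
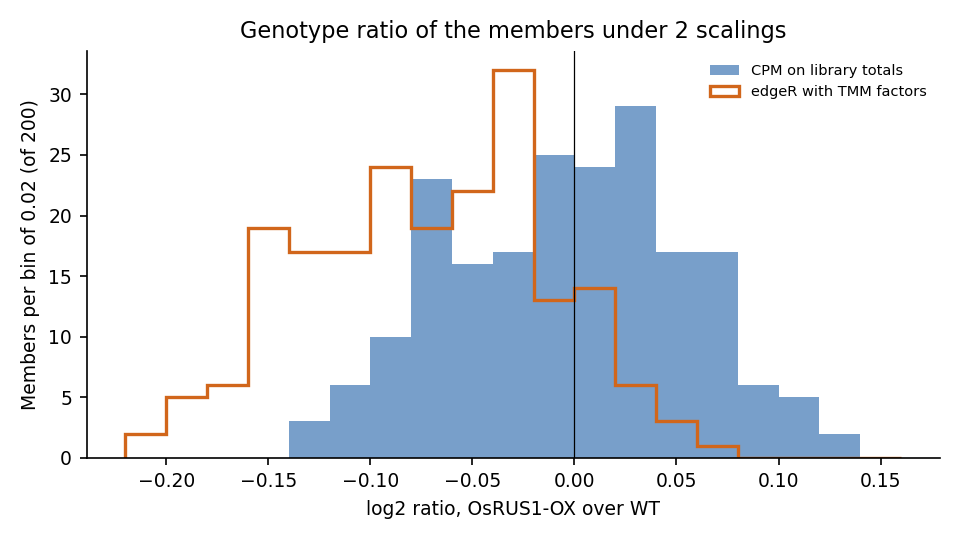
Number of the 200 genes per bin of 0.02 of the log2 ratio of OsRUS1-OX over WT, from CPM on library totals (filled) and from edgeR with TMM factors (outline). The filled distribution is centred on 0, and the outline has its median at -0.07.

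The members themselves depended on the scaling. Of the 200 genes, 100 were again among the 200 lowest CVs when CPM was computed on TMM-scaled library sizes, and 111 when counts were divided by DESeq2's size factors. On the TMM scale the CV of the 200 genes ran from 1.37% to 9.25% with a median of 5.57%, and the lowest belonged to OS01G0970400, whose CV on library totals was 4.84%. It had 51.8, 51.3 and 56.7 CPM in WT and 55.6, 55.4 and 57.9 CPM in OsRUS1-OX. Its lowest values were in WT replicates 1 and 2, the libraries with the lowest TMM factors, as evenness on the TMM scale entails. The gene with the highest CV on the TMM scale was OS05G0156300, at 9.25% against 5.73% on library totals.

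A group of 38 genes stayed in the set under both of these scalings and when any library was left out. Of these, 12 stayed in it under all 15 other ways of choosing that were tried, among them other FPKM floors and other measures of spread. They were OS05G0562400, OS07G0193600, OS04G0492100, OS06G0714100, OS07G0673100, OS09G0106700, OS06G0221100, OS08G0567200, OS10G0412000, OS01G0857700, OS08G0117400 and OS01G0970400, named after their values were seen. One of the ways was a floor of 40 FPKM, which the 105 genes under that level could not pass, and 22 of these 105 passed all the other ways. Another, the deposited FPKM, could not change the set, since it is the CPM of a gene divided by a fixed length. The mean levels of the 12 lay between 41.50 and 64.0 FPKM and their CVs on library totals between 3.18% and 4.84%. OS08G0567200 on chromosome 8 had 43.8, 45.1 and 48.4 CPM in WT and 47.7, 47.9 and 46.6 CPM in OsRUS1-OX, with CVs of 3.84% on library totals and 1.93% on the TMM scale. Its 2 lowest values were those of WT replicates 1 and 2, which a low CV on the TMM scale brings with it.

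The libraries did not take equal parts in the small spread that was left. WT replicate 1 held the lowest CPM of 56 of the 200 genes and the highest of 24. WT replicate 3 held the highest of 51 and the lowest of 10. Within WT the median CV of the 200 genes was 5.16% and within OsRUS1-OX 3.55%, and for the other candidates these medians were 14.9% and 8.47%. In both sets the WT libraries thus differed more among themselves than the OsRUS1-OX libraries did. The geometric mean of the 200 genes nonetheless stayed between 63.8 and 65.9 CPM over the 6 libraries, a CV of 1.06%.

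**Figure D4:**
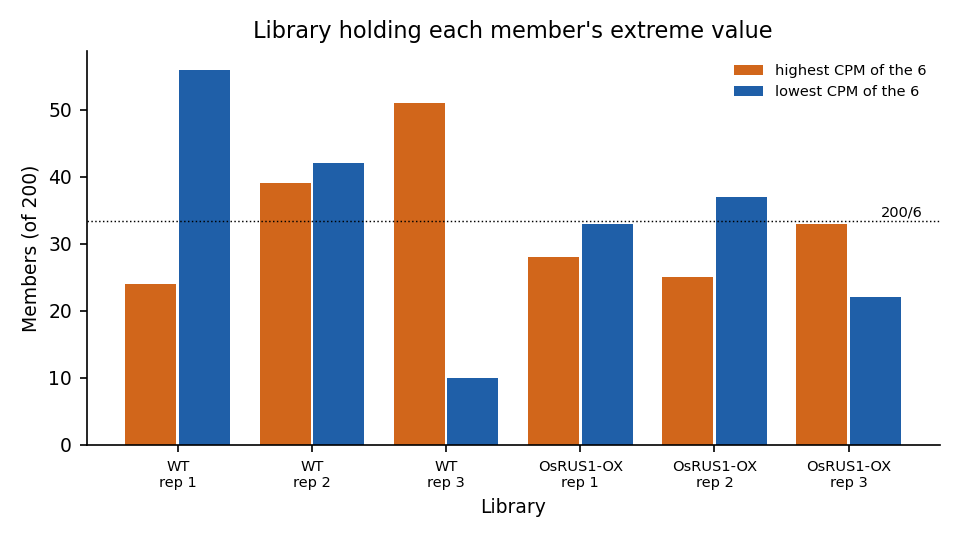
Number of the 200 genes whose highest (orange) and lowest (blue) CPM fell in each library, with the line at an equal share for the 6 libraries. WT replicate 1 holds 56 lowest values and WT replicate 3 holds 51 highest and 10 lowest values.

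Whether an even gene stays even in a library that had no part in its choice was looked at by choosing 200 genes from 5 libraries at a time and measuring them in the library left out. The distance of the left-out CPM from the mean of the other 5 libraries had medians of 10.2%, 14.01% and 9.09% for WT replicates 1, 2 and 3, and of 5.96%, 7.09% and 4.54% for OsRUS1-OX replicates 1, 2 and 3. For the other candidates the medians were 19.1%, 25.1% and 16.5% for the WT libraries and 12.1%, 20.7% and 15.0% for the OsRUS1-OX libraries. The chosen genes were closer in 6 of 6 libraries, with distances on the log2 scale of 0.318 to 0.586 times those of the other candidates. The mean of the other 5 libraries covered both genotypes, and a low CV over them disfavoured genes that differed between the genotypes. The other candidates kept such genes, so a genotype difference can be part of their larger distance. For the chosen genes and for the other candidates the distance was largest in WT replicate 2.

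In that library, 65.5% of the chosen genes were within 1.2-fold of the mean of the other libraries, against 98% in OsRUS1-OX replicate 3. For the other candidates these shares were 42.0% and 60.1%. Of the 200 genes, 94 were chosen again without WT replicate 2 and 170 without OsRUS1-OX replicate 3, and 60 were chosen whichever library was left out. With TMM-scaled CPM the distances on the log2 scale were 0.307 to 0.598 times those of the other candidates, again closer in 6 of 6 libraries. These 6 comparisons share libraries and are not independent of each other.

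**Figure D5:**
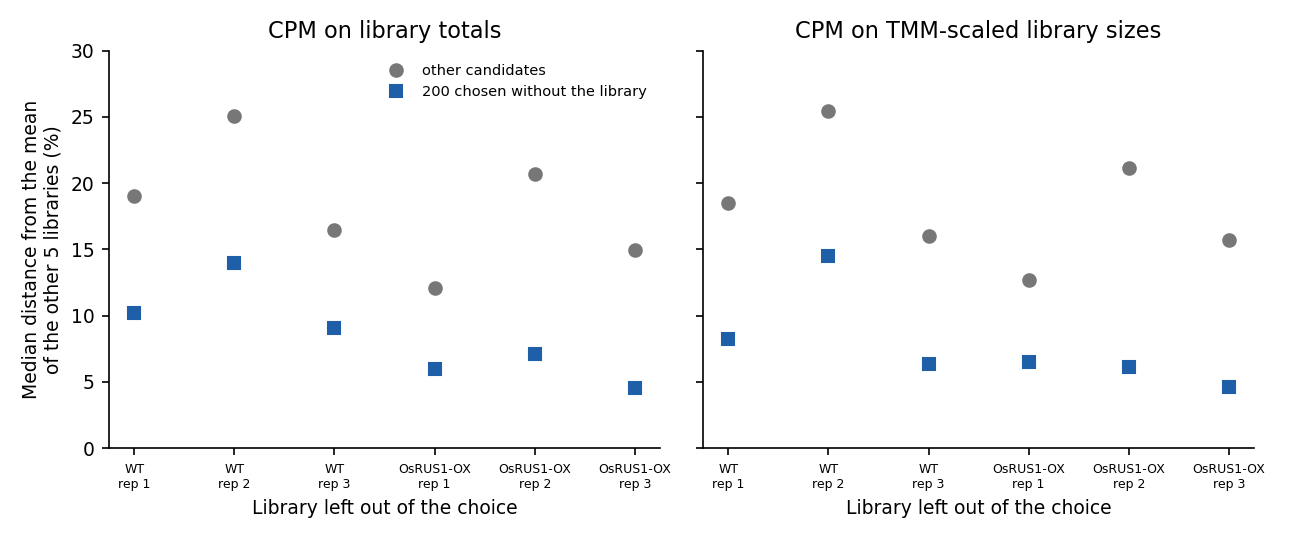
Median distance of a left-out library from the mean of the other 5 libraries, in percent, for the 200 genes chosen without that library (squares) and for the other candidates (circles), on library totals (left) and on TMM-scaled library sizes (right). The squares lie below the circles in all 6 libraries, and both are highest for WT replicate 2, at 14.01% and 25.1% on library totals.

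OsACTIN1 was far below the floor of the set, with a mean of 1.54 FPKM over its 1443 bases. It had 12, 55 and 18 counts in WT replicates 1, 2 and 3, and 30, 19 and 24 counts in OsRUS1-OX. This corresponded to 1.37, 4.68 and 1.66 CPM in WT and to 2.25, 1.59 and 1.77 CPM in OsRUS1-OX. WT replicate 2 was the highest, more than any other library, and the genotypes overlapped. The CV was 55.8%, which 404 of the 6458 candidates (6.26%) exceeded, and the highest CPM was 3.42 times the lowest.

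With so few reads counting error alone gives OsACTIN1 a CV of 19.8%, so its CV was 2.81 times the counting CV. Among the 1259 OS features of like depth, with mean counts from 21.2 to 32.8 around the 26.3 of OsACTIN1, the median CV was 37.0%, and 79.4% had a lower CV than OsACTIN1. Without WT replicate 2, singled out after its value was seen, the CV of OsACTIN1 was 18.8%, where counting gives 22.5%. The CV was thus not above counting in the other 5 libraries. With so few reads this does not show that OsACTIN1 had no further spread. The features of like depth were not recomputed without WT replicate 2. The 200 genes had a median CV of 4.72% in these 5 libraries. Actin genes form a family of similar sequences, and the counts of OsACTIN1 are uncertain where reads matched several of them. According to the study's text the FPKM values rest on uniquely mapped reads, so reads that mapped to several places were left out. The settings of the counting for strand and for overlapping features were not given. Whether the low level of OsACTIN1 comes in part from the counting was not tested.

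Relative to the geometric mean of the 200 genes, OsACTIN1 stood at -5.54, -3.78 and -5.31 on the log2 scale in WT and at -4.84, -5.34 and -5.19 in OsRUS1-OX. The WT mean was -4.88 ± 0.95 (SD, n = 3), and that of OsRUS1-OX was -5.13 ± 0.25 (SD, n = 3). The difference of -0.25 was smaller than the spread in WT and was not past the threshold in a two-sided exact permutation test (p = 0.9, where 3 libraries against 3 can give no p under 0.1). Without WT replicate 2 the difference was 0.30, in the opposite direction. In edgeR's test the log2 fold change of OsACTIN1 was -0.56 (standard error 0.49, adjusted p = 0.46), and without WT replicate 2 it was 0.25. An approximate 95% interval around -0.56, from the standard error and a normal distribution, ran from -1.51 to 0.40. It may be too narrow for so few libraries. The interval does not show that the genotypes were alike.

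The choice of reference can be followed in the reads of the 15 genes that the study assayed by qRT-PCR. The study picked them among genes that differed between the genotypes, for a possible part in leaf rolling. In its assays, on separately collected samples, all 15 changed in the same direction as in its RNA-Seq data. None was among the 200 genes. Their CVs ran from 58.4% to 131%, and the 9 that were candidates ranked between 6086 and 6445 of 6458. Of the 15, 13 had reads in every library, and their read-based log2 levels were taken relative to OsACTIN1 and relative to the geometric mean of the 200 genes. The change of reference moves every log2 ratio of OsRUS1-OX over WT by the same 0.25, and it changes the spread within the genotypes.

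DEHYDRIN (OS02G0669100), a gene of the group of proteins that accumulate in drying tissue, was 2.91 higher in OsRUS1-OX on the log2 scale relative to OsACTIN1, with a spread within the genotypes of 1.06 (pooled SD). Relative to the 200 genes it was 2.66 higher, with a spread of 0.41. PsaO (OS04G0414700), a subunit of photosystem I, was 1.95 higher relative to OsACTIN1 with a spread of 0.90, and 1.71 higher relative to the 200 genes with a spread of 0.31. The spread was smaller relative to the 200 genes for both, and for 12 of the 13 genes with reads in every library. LIPOXYGENASE (OS02G0194700) went the other way, with 1.44 relative to OsACTIN1 and 1.64 relative to the 200 genes. The choice of the set favoured a smaller spread, and so did setting a single gene of few reads against a mean over 200 genes. OsACTIN1 brought a counting CV of 19.8% into every ratio, while the geometric mean of the 200 genes had a CV of 1.06%. The smaller spread is therefore no result about the 200 genes. The 200 genes were picked for a low spread in the same libraries and are no independent reference here. For DEHYDRIN and PsaO most of the difference came with WT replicate 2, where OsACTIN1 was high. An alternative chosen after seeing the data left this library out. The spread of DEHYDRIN was then 0.58 relative to OsACTIN1 and 0.36 relative to the 200 genes, and that of PsaO 0.43 and 0.32. The genes that then went the other way were OsCIPK3 (OS03G0319400) and the response regulator (OS02G0557800). Their spreads were 0.45 and 0.51 relative to OsACTIN1, and 0.54 and 0.63 relative to the 200 genes.

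A list of 14 identifiers of other genes in common use as rice references was compared in the same way. Of these, 12 were candidates and 0 were among the 200 genes, with ranks between 491 and 5242. Their CVs ran from 7.74% to 34.3% with a median of 13.4%, and 13 of the 14 had a lower CV than OsACTIN1. edgeR called 2 of the 14 higher in OsRUS1-OX and 0 lower, where 23.6% of all features were called. Without WT replicate 2 it called 6, and 5219 of all features. Without OsRUS1-OX replicate 2 it called 1, and 2524 of all features, against 4643 with all libraries. These identifiers were not checked against an annotation, so they are given as a group only.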

How the data were processed

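RNA was sequenced from flag leaves in 3 WT and 3 OsRUS1-OX libraries. The authors mapped the filtered reads to the rice genome of Ensembl Plants with TopHat 2.0.12 and counted them on genes with HTSeq 0.6.1 (versions from the submitters' processing notes), and these raw read counts were deposited. The authors divided them by gene length and library total to give the deposited FPKM. Lengths were recovered from the counts and FPKM together.

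CPM used library totals of 8759812 to 13532579. The genes named are the 10 with the lowest CV, the 10 with the highest mean FPKM and those beside the limit of the set, and others are named as chosen after their values were seen. The members and lists were chosen with earlier results of these data known. Genotypes were compared with edgeR 4.0.16 in R 4.3.3 (TMM, its filter on low counts, the quasi-likelihood test, Benjamini-Hochberg adjustment, tested on simulated data). DESeq2 1.42.0, limma 3.58.1 on log2(FPKM + 1), other scalings, filters, a replicate block and leaving out each library were the alternatives, with exact permutation tests from scipy 1.17.1. Functional groups and promoter sequences of the 200 genes, planned at the start, were not analysed here, since no annotation used here carries their identifiers.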

Additional observations from a re-analysis of the deposited data

How the results depend on the processing

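The call of 0 of the 200 genes between the genotypes was the same in all 15 alternatives, which included DESeq2, limma, other scalings and filters, the replicate block and each library left out, and a scaling to the 200 genes that was chosen after seeing the data. The choice of the set used these libraries, so this is no sign of stability. Over all features, edgeR called 4643, and the alternatives that kept all libraries called 3857 to 5100. Leaving out 1 library gave 2397 (without OsRUS1-OX replicate 3) to 5219 (without WT replicate 2). The share of calls that were higher in OsRUS1-OX was 50.1%, and 58.7% with library totals, 59.1% with the scaling to the 200 genes and 59.7% with limma.

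Of the 200 genes, 100 were chosen again with TMM-scaled CPM, 111 with DESeq2 size factors, 124 by the CV over the counting CV, 95 with a floor of 40 FPKM and 123 with no FPKM floor, and 94 to 170 with 1 library left out. A floor of 10 FPKM kept 143, the ratio of the largest to the smallest CPM 173 and the SD of log2(CPM + 1) 194. The deposited FPKM kept all 200, which was fixed in advance because it is the CPM divided by a fixed gene length. The CV of the 20 genes named by rank moved by more than its own sampling error in 34 of 40 values under TMM or DESeq2 scaling, and in 9 of 120 values with 1 library left out.

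OsACTIN1 changed direction between the genotypes without WT replicate 2, where edgeR's log2 fold change was 0.25 (adjusted p = 0.60), over a range of -0.84 to 0.25 with 1 library left out. Its difference relative to the 200 genes ranged from -0.58 to 0.30, with 0.30 without WT replicate 2. Of the 14 listed reference identifiers, edgeR called between 1 and 6 with 1 library left out, where its calls over all features ranged from 2397 to 5219. The cause was not tested for any of these.

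The deviations of libraries with equal replicate numbers correlated at 0.13, -0.09 and 0.11, within the range of -0.24 to 0.17 for unequal numbers. These values cannot show whether the leaves were collected in pairs. With the replicate block, edgeR called 4013 features and 0 of the 200 genes, and the log2 fold change of OsACTIN1 was -0.39 (adjusted p = 0.63). Depth limits the order of the first genes, and OsACTIN1 with 12 to 55 counts.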
